A study of Mus musculus with 15 samples.

Results

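The integrated stress response genes described here are Atf3, Atf4, Ddit3, Trib3, Asns, Chac1, Sesn2, Xbp1, Herpud1 and Creld2. They were taken by gene symbol from a table of 18931 genes, and all 10 were found. Their levels were read in 15 brain libraries from Kunming mice, an outbred stock, with 3 libraries in each of 5 groups. The labels place all 5 groups, sham included, under MCAO, the abbreviation in use for blocking the middle cerebral artery to model stroke. Mice of 3 groups received what the labels call JA, UA or JU, those of another received vehicle, and the last group is sham. The study's title names jasminoidin, ursodeoxycholic acid and their combination, but the labels do not spell out the treatment codes, and JU is compared below as if it were JA and UA together. Dose, time after surgery, age and brain region are not in the labels. Nothing in the labels says whether libraries of a group came from different animals, so p-values describe the spread between libraries, which may be technical.

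In the integrated stress response, kinases that sense amino acid shortage, viral RNA, haem shortage or misfolded protein in the endoplasmic reticulum phosphorylate the translation factor eIF2 alpha. General protein synthesis then falls, while the messenger RNA of the transcription factor ATF4 is translated more, so the Atf4 transcript need not follow the activity of its protein. ATF4 binds short C/EBP-ATF response elements with partner proteins and raises genes of amino acid supply, redox balance and cell death. In the ischemic brain the response is known alongside the unfolded protein response, in which the sensors IRE1 and ATF6 raise chaperones and degradation factors of the endoplasmic reticulum through XBP1 and ATF6.

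Promoters of 6 members are shown because a letter match to an element of these pathways lay in each. Members that matched the same searched letters did not share a direction below. Sequences are from RefSeq on GRCm38.p6, which matched all 10 members, and run 5′ to 3′ along the gene from 250 bases before to 50 bases after the annotated start. For Atf3 the RefSeq start lies inside the GENCODE gene, which begins at 191218039 on the minus strand, and that start was not searched. Capitals mark the matches, which read as the reverse complement where the element lies on the other strand.
Atf3 promoter, chr1:191183284-191183583, minus strand: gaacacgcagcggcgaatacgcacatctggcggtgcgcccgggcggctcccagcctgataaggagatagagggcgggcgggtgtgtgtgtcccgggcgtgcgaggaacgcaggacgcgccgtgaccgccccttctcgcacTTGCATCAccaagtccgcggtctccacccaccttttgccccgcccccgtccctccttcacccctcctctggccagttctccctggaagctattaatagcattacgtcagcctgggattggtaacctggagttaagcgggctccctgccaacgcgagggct
Trib3 promoter, chr2:152344011-152344310, minus strand: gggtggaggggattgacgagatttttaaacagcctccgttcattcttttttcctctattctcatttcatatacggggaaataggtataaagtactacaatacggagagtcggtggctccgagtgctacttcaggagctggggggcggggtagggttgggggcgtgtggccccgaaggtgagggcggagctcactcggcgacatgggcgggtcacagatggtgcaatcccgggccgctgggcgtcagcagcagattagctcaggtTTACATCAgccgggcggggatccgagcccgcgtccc
Asns promoter, chr6:7693160-7693459, minus strand: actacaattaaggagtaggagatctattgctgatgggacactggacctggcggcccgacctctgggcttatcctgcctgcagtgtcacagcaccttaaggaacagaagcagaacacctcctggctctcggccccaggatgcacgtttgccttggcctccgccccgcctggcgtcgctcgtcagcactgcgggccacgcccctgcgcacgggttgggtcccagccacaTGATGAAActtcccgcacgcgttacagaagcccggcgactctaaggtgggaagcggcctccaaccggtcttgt
Chac1 promoter, chr2:119350992-119351291, plus strand: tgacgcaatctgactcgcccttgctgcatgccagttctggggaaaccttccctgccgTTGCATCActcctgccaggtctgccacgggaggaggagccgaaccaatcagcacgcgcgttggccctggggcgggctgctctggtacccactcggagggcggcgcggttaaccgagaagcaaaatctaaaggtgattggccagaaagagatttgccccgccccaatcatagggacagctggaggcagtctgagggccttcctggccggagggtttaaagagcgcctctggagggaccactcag
Herpud1 promoter, chr8:94386179-94386478, plus strand: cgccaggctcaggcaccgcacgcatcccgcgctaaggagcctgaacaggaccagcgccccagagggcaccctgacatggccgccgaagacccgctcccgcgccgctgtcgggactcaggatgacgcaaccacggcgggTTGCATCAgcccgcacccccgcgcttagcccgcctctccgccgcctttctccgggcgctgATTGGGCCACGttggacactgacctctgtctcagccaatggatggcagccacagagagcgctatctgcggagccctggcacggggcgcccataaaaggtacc
Creld2 promoter, chr15:88819396-88819695, plus strand: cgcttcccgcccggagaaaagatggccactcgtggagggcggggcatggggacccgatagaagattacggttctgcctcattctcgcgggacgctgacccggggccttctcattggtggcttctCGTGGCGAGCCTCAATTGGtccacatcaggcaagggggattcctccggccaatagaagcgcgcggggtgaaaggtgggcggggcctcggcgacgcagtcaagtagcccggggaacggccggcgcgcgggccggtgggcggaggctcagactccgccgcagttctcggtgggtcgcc

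The motif called CARE (C/EBP-ATF response element) was searched as TGATGNAA on both strands. It matched in Atf3, Trib3, Asns, Chac1 and Herpud1, and in 3.97% of all 32851 promoter windows of the same length. Counted from the start, with negative positions before it, the match began at position -110 in Atf3, -23 in Asns, -193 in Chac1, -112 in Herpud1 and 15 in Trib3. The element ERSE, searched on both strands as CCAAT, 9 bases of any kind and CCACG, matched in Creld2 and in 0.119% of windows. ERSE-II, searched as ATTGG, 1 base of any kind and CCACG, matched in Herpud1 and in 0.0365%. Neither UPRE (TGACGTGG, in 0.676% of windows) nor CRE (TGACGTCA, in 1.79%) matched in any of the 10 members, and no 2 of the matches shown overlap. A match is a description of letters in this window, not of a bound site.

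Libraries held 18346180 to 20447465 counts, and 16498 to 17052 genes had a count. Levels are CPM, counts divided by library size after TMM scaling, and 3 counts, the floor used here, equal 0.147 to 0.164 CPM. JA and JU libraries did not lie together by group. On the first principal component, which held 66.5% of the variance, vehicle libraries lay between 27.1 and 84.2 and sham libraries between -40.4 and -39.1. JU replicate 1 lay at 129 and JU replicates 2 and 3 at -33.7 and -0.521, while JA replicate 1 lay at 25.3 and JA replicates 2 and 3 at -30.4 and -43.2. Counts of called members and list genes in vehicle against sham are therefore given with and without JU replicate 1, as are the main comparisons of members in which that library or JA replicate 1 stood apart. Summed levels of 8 macrophage and activated myeloid markers spread in the same way, at 78.02 to 2640 CPM in JA, 63.4 to 379 in UA, 67.2 to 19040 in JU, 2047 to 7187 in vehicle and 57.1 to 69.4 in sham. The sum of 8 neuronal markers was 8135 to 10170 CPM in JA, 9179 to 9653 in UA, 3564 to 9495 in JU, 5637 to 7928 in vehicle and 9514 to 9741 in sham. Neuronal markers were therefore abundant in every library. In such bulk RNA a change in the number of cells of a type and a change in RNA per cell cannot be told apart.

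Atf3 had by far the widest range of the 10 genes, Ddit3 and Sesn2 were moderately higher in vehicle than in sham, Asns was lower, and Atf4 and Xbp1 had fold changes near 0 between vehicle and sham. In the fit of all 15 libraries no member passed the threshold between vehicle and sham, against 5.02% of all genes. Once JU replicate 1 was left out of the fit 6 passed, against 33.9% of all genes. Compared per transcript length, in the deposited FPKM values, Atf4 was the most and Trib3 the least abundant. Median FPKM over the 15 libraries was 95.5 for Atf4, 46.2 for Asns, 38.4 for Xbp1, 23.9 for Herpud1, 9.295 for Creld2, 8.27 for Ddit3, 4.59 for Sesn2, 4.29 for Chac1, 0.536 for Atf3 and 0.341 for Trib3.

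**Figure D1:**
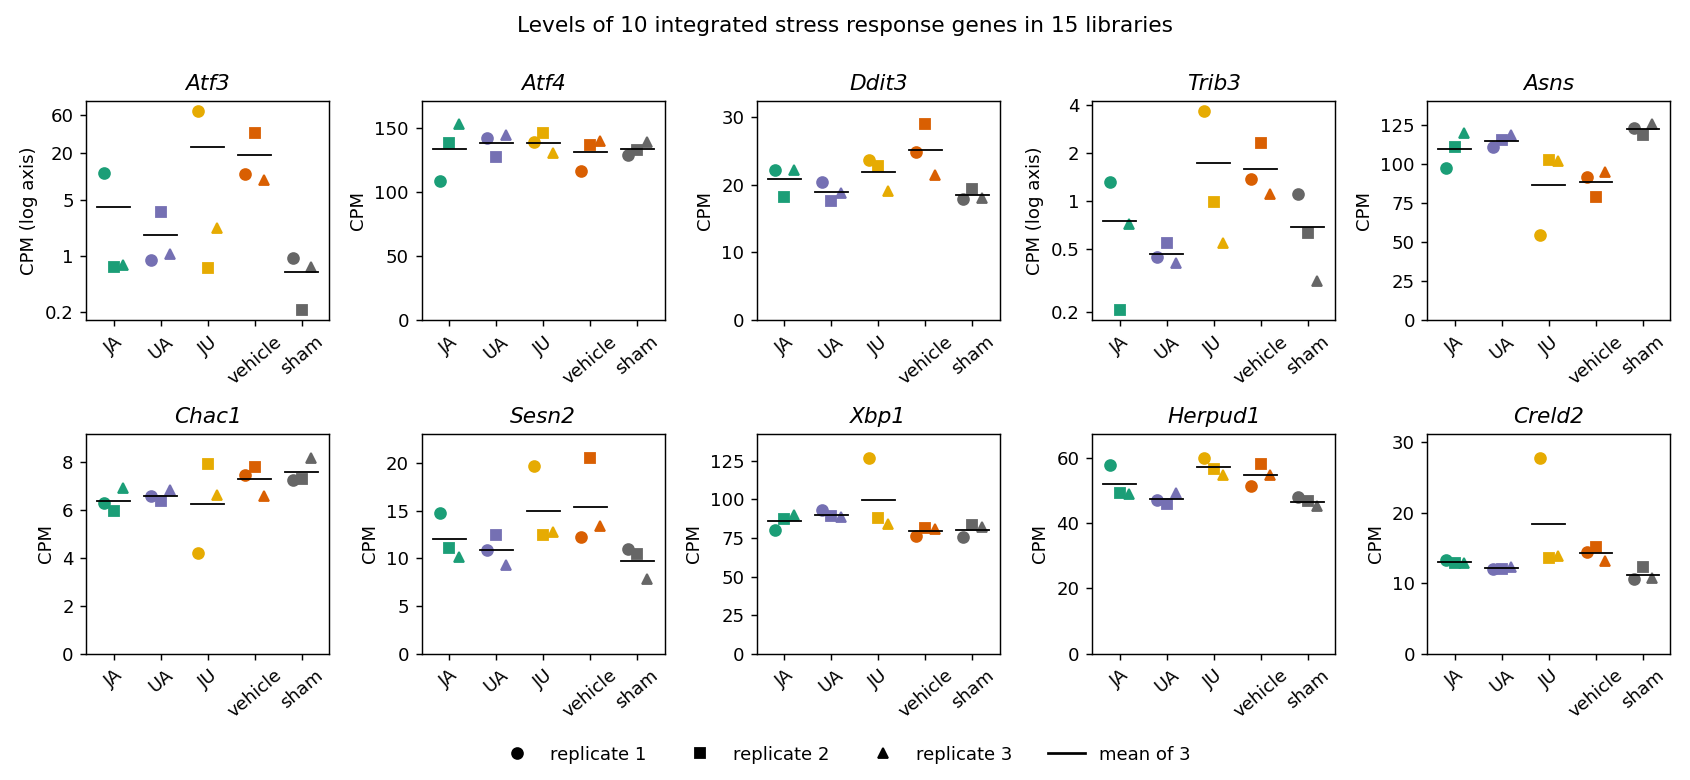
Level of each member in every library, in CPM, by group (JA, UA, JU, vehicle, sham), with symbols for the replicate and a bar for the mean of 3; the axes of Atf3 and Trib3 are logarithmic and the others start at 0. JU replicate 1 is the highest library for Atf3 at 67.7 CPM and the lowest for Asns at 54.9 CPM, while Atf4 stays between 108.9 and 153.4 CPM throughout.

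Atf4, the central transcription factor of the response (Entrez 11911, chromosome 15, 80255184 to 80257541, GRCm38), stood at 116.6, 136.8 and 140.4 CPM in vehicle, against 129.2, 133.4 and 139.3 CPM in sham. The groups overlapped, and the log2 fold change was -0.03 ± 0.12 (SE; edgeR adjusted p = 0.882). JA libraries had 108.9, 138.4 and 153.4 CPM, UA libraries 142.5, 127.5 and 144.7, and JU libraries 139.3, 146.2 and 130.4, listed by replicate 1 to 3 as in every such list here. The lowest and the highest of all 15 libraries were both JA libraries, replicates 1 and 3. JU replicate 1, which held the most Atf3, ranked 6 of 15 for Atf4.

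Atf3, a stress-induced repressor and activator of the same bZIP family (Entrez 11910, chromosome 1, 191170296 to 191218039), stood at 10.75, 35.7 and 9.08 CPM in vehicle, against 0.947, 0.208 and 0.730 CPM in sham. Those sham levels rest on 18, 4 and 14 counts. Every vehicle library exceeded every sham library, with a log2 fold change of 4.87 ± 1.68 that did not pass the edgeR threshold (adjusted p = 0.0941). Leaving JU replicate 1 out of the fit gave 4.86 ± 1.22 (adjusted p = 0.0127). DESeq2 set no p for Atf3 in any comparison, so it stands in none of the DESeq2 counts below. UA libraries had 0.885, 3.56 and 1.08 CPM, below every vehicle library, with a fold change of -3.32 ± 1.51 (adjusted p = 0.2025) and of -3.31 ± 1.08 without JU replicate 1 (adjusted p = 0.0437). JA libraries had 11.03, 0.720 and 0.774 CPM, so that replicate 1 lay among the vehicle libraries and the others within the sham range. JU libraries had 67.7, 0.710 and 2.27 CPM, and replicate 1 was the highest of all 15 at 45.45 times the mean of the other JU libraries.

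The Atf3 level lay close to the order of the myeloid markers across libraries. The 5 libraries with a myeloid marker sum of at least 2047 CPM were the 3 vehicle libraries, JA replicate 1 and JU replicate 1. These were also the 5 libraries with Atf3 at 9.08 CPM or more, and the other 10 had at most 3.56 CPM. UA replicate 2 and JU replicate 3, which had the next highest marker sums at 379 and 255 CPM, also had the next highest Atf3 levels. The part of myeloid cells in the Atf3 differences was not tested.

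**Figure D2:**
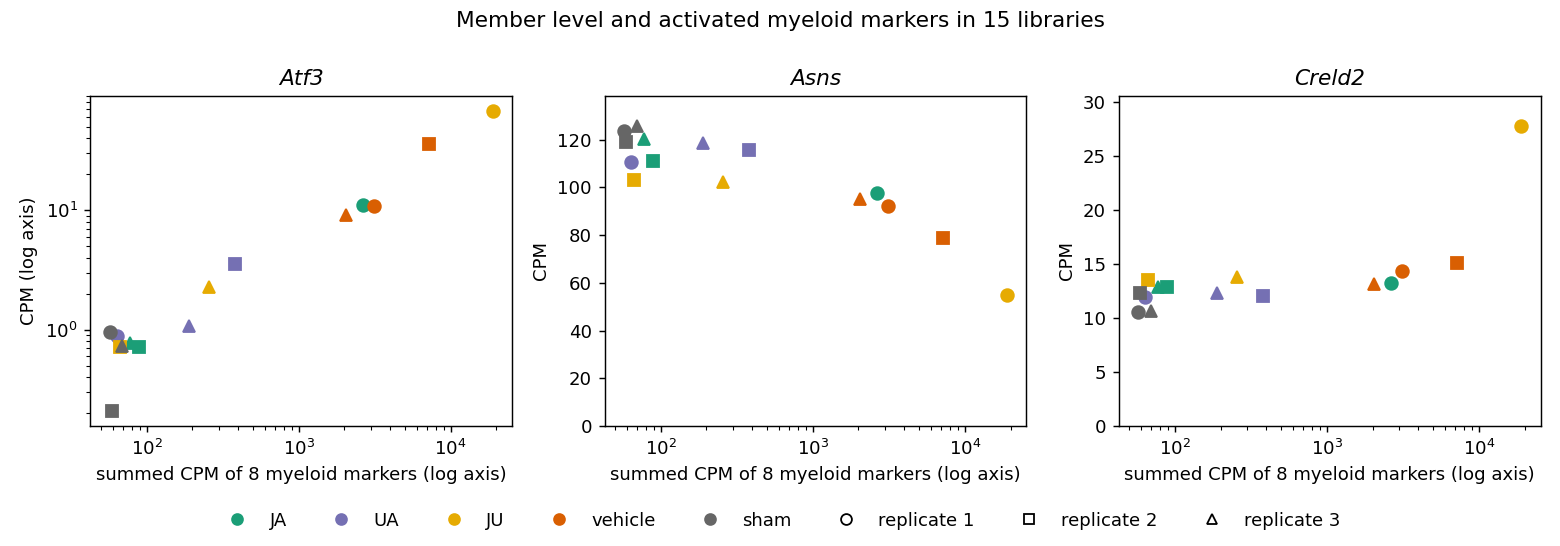
Level of Atf3, Asns and Creld2 in CPM (vertical) against the summed CPM of 8 macrophage and activated myeloid markers (horizontal, log axis) in each of the 15 libraries, coloured by group with symbols for the replicate; the Atf3 axis is logarithmic. Atf3 is highest and Asns lowest in JU replicate 1, where the marker sum reaches 19040 CPM, and Creld2 stands at 27.8 CPM in that library against at most 15.2 CPM in all others.

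Ddit3, which encodes CHOP, a factor of stress-induced cell death (Entrez 13198, chromosome 10, 127290774 to 127296288), stood at 24.9, 28.95 and 21.4 CPM in vehicle, against 17.9, 19.4 and 17.99 CPM in sham. The groups did not overlap, and the log2 fold change was 0.44 ± 0.13 (adjusted p = 0.0621, and 0.0157 without JU replicate 1). DESeq2 called it on the full set of libraries (0.44 ± 0.14, adjusted p = 0.0137). UA libraries had 20.4, 17.6 and 18.8 CPM, below every vehicle library, at -0.40 ± 0.13 (adjusted p = 0.104, and 0.0292 without JU replicate 1). JA libraries had 22.1, 18.2 and 22.1 CPM and JU libraries 23.7, 22.8 and 19.1 CPM, and both overlapped vehicle. Of the exon bases of Ddit3, 4.73% lie under Mars or Gm4189 on the opposite strand. The library kit keeps strand, but whether the counting used it is not given in the sources used here, so reads there may belong to either gene.

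Trib3, a pseudokinase induced by ATF4 and CHOP that feeds back on both (Entrez 228775, chromosome 2, 152337422 to 152344032), was scarce, with 4 to 72 counts per library. It stood at 1.382, 2.306 and 1.099 CPM in vehicle, against 1.105, 0.6252 and 0.3129 CPM in sham. The lowest vehicle library lay just under the highest sham library, and the log2 fold change was 1.22 ± 0.74 (adjusted p = 0.281, and 0.116 without JU replicate 1). UA libraries had 0.442, 0.543 and 0.410 CPM, below every vehicle library, at -1.76 ± 0.76 (adjusted p = 0.188, and 0.0430 without JU replicate 1). JU libraries had 3.70, 0.984 and 0.542 CPM and JA libraries 1.31, 0.206 and 0.718 CPM. JU replicate 1 was again the highest of the 15.

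Asns and Chac1, whose promoters also match the CARE letters, did not follow Atf3 and Trib3. The matches lie at different positions, and that of Asns also differs from the others in strand and in the base at N. Asns, the enzyme that makes asparagine (Entrez 27053, chromosome 6, 7675169 to 7693254), stood at 92.1, 78.85 and 94.97 CPM in vehicle, against 123.6, 118.9 and 125.8 CPM in sham. Every vehicle library was below every sham library, at a log2 fold change of -0.47 ± 0.19 (adjusted p = 0.126). Without JU replicate 1 it was -0.48 ± 0.08 (adjusted p = 0.00224), the smallest adjusted p of the 10 members in that fit. JA libraries had 97.6, 111.2 and 120.1 CPM and UA libraries 110.8, 115.7 and 118.6 CPM, all above the vehicle libraries. The fold changes against vehicle were 0.31 ± 0.19 for JA (adjusted p = 0.360, and 0.0251 without JU replicate 1) and 0.38 ± 0.19 for UA (adjusted p = 0.228, and 0.00781 without it). JU libraries had 54.9, 103.0 and 102.4 CPM, and replicate 1 was the lowest of all 15. The vehicle libraries, JU replicates 1 and 3 and JA replicate 1 had the lowest neuronal marker sums, at most 8359 CPM. They also had the lowest Asns levels, at most 102.4 CPM, in the same order. The part of neurons in the Asns differences was not tested.

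Chac1, an enzyme that degrades glutathione and a marker of ATF4 and CHOP activity in cultured cells (Entrez 69065, chromosome 2, 119351229 to 119354381), stood at 7.47, 7.80 and 6.60 CPM in vehicle, against 7.26, 7.29 and 8.19 CPM in sham. The groups overlapped, with a log2 fold change of -0.06 ± 0.19 (adjusted p = 0.859). JA libraries had 6.29, 5.96 and 6.91 CPM, UA libraries 6.58, 6.37 and 6.81, and JU libraries 4.22, 7.92 and 6.61. The lowest value was again JU replicate 1, the library with the highest Atf3 and Trib3.

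Sesn2, a sestrin that senses leucine and restrains mTORC1, and which p53 also induces (Entrez 230784, chromosome 4, 132492032 to 132510501), stood at 12.2, 20.6 and 13.4 CPM in vehicle, against 11, 10.5 and 7.82 CPM in sham. The groups did not overlap, at a log2 fold change of 0.66 ± 0.25 (adjusted p = 0.115, and 0.03075 without JU replicate 1). JU libraries had 19.65, 12.5 and 12.7 CPM, JA libraries 14.75, 11.05 and 10.2, and UA libraries 10.8, 12.5 and 9.33. UA overlapped vehicle by 1 library, at -0.50 ± 0.25 (adjusted p = 0.227).

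The 3 members tied to the endoplasmic reticulum differed by little between vehicle and sham. Xbp1, whose messenger RNA is spliced by IRE1 into the form that encodes the active factor (Entrez 22433, chromosome 11, 5520659 to 5525893), stood at 76.0, 81.2 and 80.8 CPM in vehicle, against 75.9, 83.1 and 82.35 CPM in sham. The ranges overlapped, at a log2 fold change of -0.02 ± 0.13 (adjusted p = 0.927), and a gene count does not separate the spliced form. JU libraries had 127.1, 88.1 and 84.0 CPM, all above every vehicle library, at 0.33 ± 0.13 (unadjusted p = 0.0220, adjusted p = 1.0). That value was 0.12 without JU replicate 1. UA libraries had 92.8, 89.0 and 88.6 CPM, also above every vehicle library, at 0.18 ± 0.13 (adjusted p = 0.359, and 0.0374 without JU replicate 1). JA libraries had 80.3, 87.5 and 89.9 CPM.

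Herpud1, a membrane component of the degradation pathway of the endoplasmic reticulum (Entrez 64209, chromosome 8, 94386438 to 94395377), stood at 51.2, 58.15 and 54.8 CPM in vehicle, against 47.8, 46.7 and 45.1 CPM in sham. The groups did not overlap, with a small log2 fold change of 0.23 ± 0.08 (adjusted p = 0.08925, and 0.0334 without JU replicate 1). DESeq2 gave an adjusted p of 0.0305 with all libraries. With GC correction the value was 0.11, with an edgeR adjusted p of 0.350 on all libraries and 0.236 without JU replicate 1. UA libraries had 47.0, 46.0 and 49.2 CPM, below every vehicle library, at -0.21 ± 0.08 (adjusted p = 0.152). JU libraries had 60.1, 56.55 and 54.6 CPM and JA libraries 57.9, 49.3 and 49.0 CPM, both overlapping vehicle.

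Creld2, a secreted resident of the endoplasmic reticulum induced by ATF6 (Entrez 76737, chromosome 15, 88819646 to 88826683), stood at 14.4, 15.2 and 13.2 CPM in vehicle, against 10.6, 12.35 and 10.7 CPM in sham. The groups did not overlap, at 0.35 ± 0.22 on the log2 scale (adjusted p = 0.307, and 0.0180 without JU replicate 1). With GC correction it was 0.20 (adjusted p = 0.558, and 0.132 without JU replicate 1). JU libraries had 27.8, 13.55 and 13.9 CPM, so the value of JU replicate 1 was 2.03 times the mean of the other JU libraries. JA libraries had 13.2, 12.85 and 12.9 CPM and UA libraries 11.95, 12.05 and 12.35 CPM, among the closest replicates of any member.

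**Figure D3:**
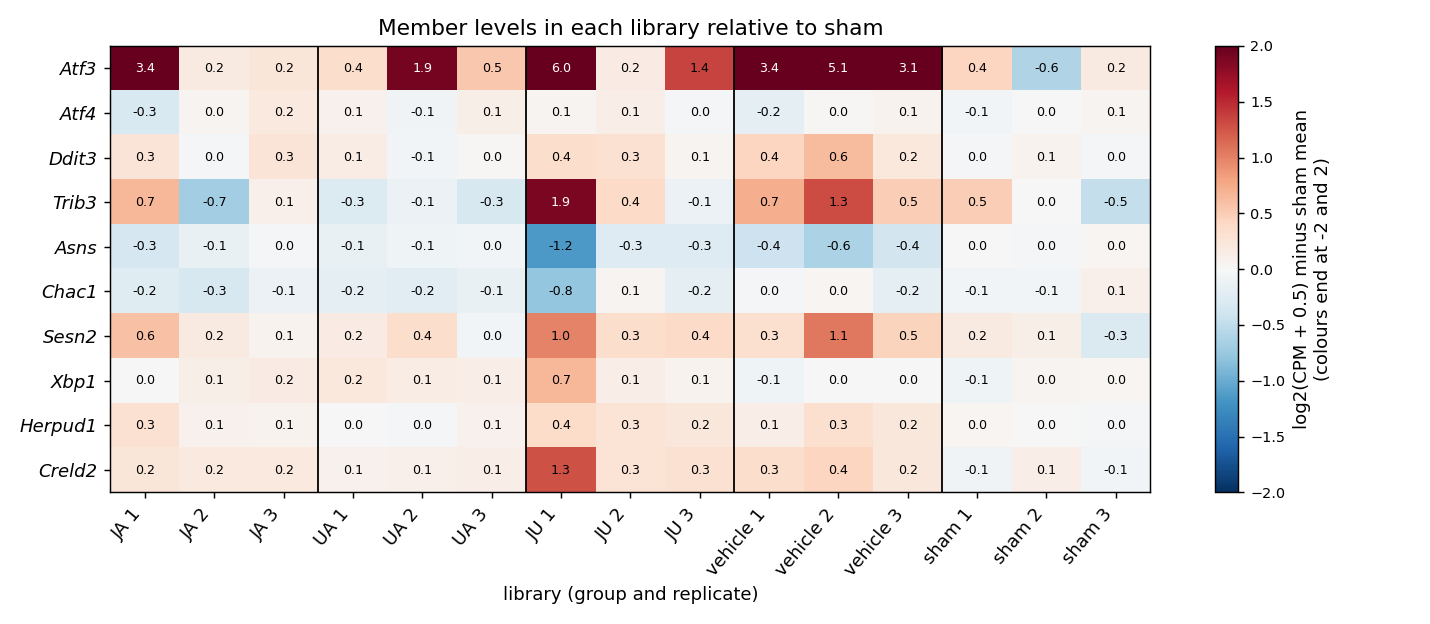
Level of each member (rows) in each library (columns, by group and replicate) as log2(CPM + 0.5) minus the mean of the 3 sham libraries; red is higher and blue lower than sham, and colours end at -2 and 2. JU replicate 1 holds the most extreme value of the row for Atf3, Trib3, Asns, Chac1, Xbp1, Herpud1 and Creld2.

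In the comparison of vehicle with sham, which asks what occlusion did, 0 of 10 members passed the edgeR threshold (adjusted p below 0.05), against 5.02% of the 15125 genes tested. At an unadjusted p below 0.05 there were 5 members, against 29.3% of all genes, and DESeq2 called 2 members, Ddit3 and Herpud1, against 16.4% of genes. Ranges of the 3 libraries did not overlap for 6 of 10 members, against 49.2% of all genes. The median log2 fold change of the members was 0.29, against 0.00 over all genes, with 6 members positive and 4 negative. Without JU replicate 1 in the fit 6 members passed, with Atf3, Ddit3, Sesn2, Herpud1 and Creld2 higher (5, against 17% of genes) and Asns lower (1, against 16.9%), together against 33.9% of genes. The same 6 passed when JA replicate 1 was also left out, against 35.9%. Without JU replicate 2, Ddit3 alone passed (adjusted p = 0.0483), against 11% of genes. The fits that left out any other library called 0 members, and 0 to 708 of all genes. With a correction for GC content and all libraries 0 members passed, and 1 of the 15125 genes tested. With that correction and without JU replicate 1, Atf3, Ddit3 and Asns passed, against 24.8% of genes, and Sesn2 (adjusted p = 0.0909), Herpud1 and Creld2 did not.

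In the comparison of JA with vehicle, 0 members passed, against 1.56% of genes, and 0 had an unadjusted p below 0.05, against 18.8%. DESeq2 also called 0, against 6.49% of genes, with no adjusted p for Atf3 and Trib3. The median log2 fold change was -0.16, against -0.01 over all genes. Asns was the 1 member whose ranges did not overlap, against 33.3% of genes. Atf3 stood at 4.17 ± 5.94 CPM with JA and 18.5 ± 14.9 CPM with vehicle (SD, n = 3 each), at -2.14 ± 1.42 on the log2 scale (adjusted p = 0.395). When only JU replicate 1 was left out, Asns alone passed, against 19% of genes, a call that ended with GC correction (adjusted p = 0.0813). With JA replicate 1 left out as well, the Atf3 value was -4.62 ± 0.93 (adjusted p = 0.00832). Trib3 (-1.79, adjusted p = 0.0459) and Asns (0.38, adjusted p = 0.00900) then passed too, against 28.2% of genes.

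In the comparison of UA with vehicle, 0 members passed, against 3.47% of genes, and 4 had an unadjusted p below 0.05, against 24.3%. DESeq2 called 1 member, Ddit3, at -0.40 ± 0.14 (adjusted p = 0.0368), against 10.3% of genes, and again gave no adjusted p for Trib3. Ranges did not overlap for 7 of 10 members, against 43.9% of genes, the exceptions being Atf4, Chac1 and Sesn2. The median log2 fold change was -0.22, against -0.01 over all genes. When JU replicate 1 was left out, Atf3, Ddit3 and Trib3 fell with UA (3 members, against 13.4% of genes) and Asns and Xbp1 rose (2, against 14.8%), together against 28.2%. With GC correction as well, Ddit3, Asns and Xbp1 passed, against 11.7% of genes, and Atf3 (adjusted p = 0.0678) and Trib3 (adjusted p = 0.0805) did not. JA and UA were compared with the same vehicle libraries, so their fold changes share that error. Vehicle against sham uses those libraries too, with the opposite sign. Opposite fold changes in vehicle against sham and in JA or UA against vehicle are therefore not independent. Between JA and UA 0 members passed, against 0.0% of genes, and the largest difference was 1.18 ± 1.46 for Atf3 (adjusted p = 0.9999), which was -1.30 without JA replicate 1. At an unadjusted p below 0.05 there were 0 members and 2.17% of genes, and DESeq2 called 0 members, against 0.00661% of genes.

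**Figure D4:**
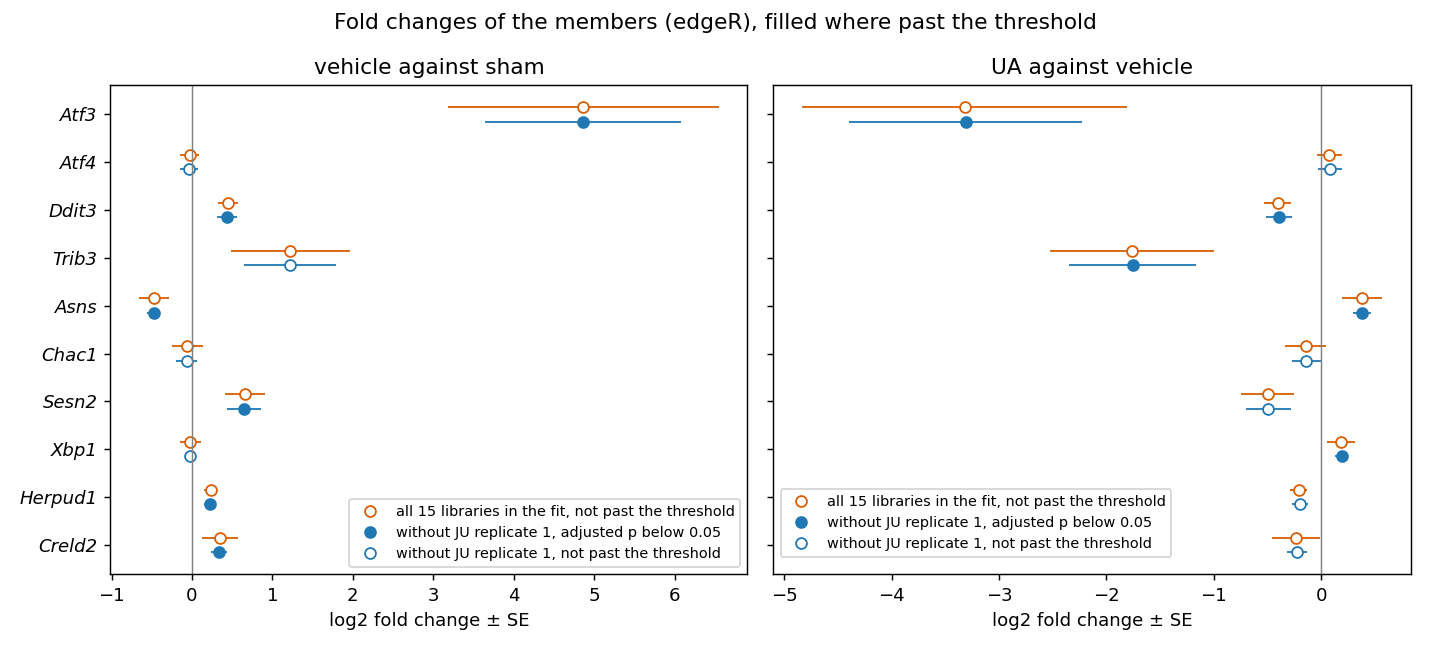
Log2 fold change ± SE of each member in vehicle against sham (left) and UA against vehicle (right), fitted with edgeR on all 15 libraries (orange) or without JU replicate 1 (blue); filled points passed an adjusted p of 0.05. The fold changes hardly move between the fits, at 4.87 and 4.86 for Atf3 in vehicle against sham, while the SE of Asns there is 0.19 with all libraries and 0.08 without JU replicate 1.

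In the comparison of JU with vehicle, 0 members passed, against 0.0% of genes, and Xbp1 alone had an unadjusted p below 0.05, against 1.98% of genes. DESeq2 called 0 members, against 0.0132%. Ranges did not overlap for Xbp1 alone, against 4.23% of genes. Atf3 stood at 23.6 ± 38.2 CPM with JU and 18.5 ± 14.9 CPM with vehicle (SD, n = 3 each), at 0.35 ± 1.34 on the log2 scale (adjusted p = 1.0). The sign of this value turned without JU replicate 1, to -3.61 (adjusted p = 0.187), and 0 members passed, against 0.00656% of genes. Trib3 likewise stood at 0.13 with that library and -1.06 without it, and Creld2 at 0.37 and -0.05.

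JU was also set against each single treatment. Against JA 0 members passed, as did 0.0% of genes, and Creld2, at 18.4 ± 8.16 CPM in JU and 12.99 ± 0.220 CPM in JA (SD, n = 3 each), had the smallest p of the 10 (0.50 ± 0.22, adjusted p = 0.238). It was the 1 member with an unadjusted p below 0.05, against 20.3% of genes, and DESeq2 called 0 members, against 4.18%. Against UA 0 members passed, against 1.08% of genes, and 5 had an unadjusted p below 0.05, against 27.3%. Herpud1 had the smallest p there, at 57.1 ± 2.76 CPM in JU and 47.4 ± 1.64 CPM in UA (0.27 ± 0.08, adjusted p = 0.0944), and every JU library exceeded every UA library. DESeq2 called Herpud1 in this comparison (adjusted p = 0.0154), against 10.7% of genes, and gave no adjusted p for Trib3. Atf3 was 2.49 ± 1.44 against JA (adjusted p = 0.315) and 3.67 ± 1.53 against UA (adjusted p = 0.157). Both Atf3 values turned negative without JU replicate 1, to -1.47 and -0.30, and 0 members passed in either comparison, against 0.0% of genes for JA and 0.623% for UA.

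The study's title asks about synergy. On the log2 scale this can be put as the departure of JU from the sum of the JA and UA effects (JU minus JA minus UA plus vehicle). A departure opposite in sign to the single effects means that JU fell short of their sum. Herpud1 was the 1 member of 10 past the threshold, against 20.8% of genes, with a departure of 0.34 ± 0.11 (adjusted p = 0.0478). With GC correction its value was 0.12 (adjusted p = 0.402), and the call also ended with the replicate block (adjusted p = 0.0672), without a count filter (adjusted p = 0.0634) and with only the groups compared (adjusted p = 0.0864). Atf3 had 5.81 ± 2.09 (adjusted p = 0.0617). Against vehicle, on all 15 libraries, JA, UA and JU gave -0.07, -0.21 and 0.06 for Herpud1 in that order. For Atf3 they gave -2.14, -3.32 and 0.35. Both genes were negative with JA and UA and positive with JU, so these departures do not show JU adding to the single effects. DESeq2 called 4 members, Ddit3, Trib3, Asns and Herpud1, against 31.4% of genes. Without JU replicate 1 the Herpud1 departure was 0.30 (adjusted p = 0.0777), Atf3 had 1.84 (adjusted p = 0.446), and Asns was the 1 member called, at -0.48 ± 0.13 (adjusted p = 0.0203), against 19.5% of genes. In that fit Asns stood at 0.31 with JA, 0.38 with UA and 0.22 with JU against vehicle, so JU again fell short of the sum. That Asns call ended with GC correction (-0.37, adjusted p = 0.161). Leaving out JA replicate 1 gave 3 members, against 21% of genes, JU replicate 2 gave 5, against 36.1%, and JU replicate 3 gave 6, against 26.8%. The count was 1 without vehicle replicate 1, against 16.4% of genes. It was 0 without JA replicates 2 or 3, any UA or sham replicate, or vehicle replicates 2 or 3. Those fits called 974 to 1983 of all genes.

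Beyond the 10 members, genes of amino acid supply had the largest median between vehicle and sham among the pathway lists. Of 21 such genes, 1 rose and 0 fell in edgeR, where 5.02% of all genes were called. Of the 21, 18 were positive, and the median log2 fold change was 0.44, against 0.00 over all genes. Slc7a5, a leucine transporter, rose to 81.8 ± 8.45 CPM in vehicle, against 57.9 ± 6.69 CPM in sham (SD, n = 3 each), at 0.50 ± 0.13 on the log2 scale (edgeR adjusted p = 0.0464). Its call held in 3 of 15 fits that left out 1 library (adjusted p from 0.00951 to 0.190), and with GC correction the value was 0.34 (adjusted p = 0.219). Aldh1l2 and Shmt2, mitochondrial enzymes of folate metabolism, stood at 1.54 ± 0.48 (adjusted p = 0.0772) and 0.49 ± 0.16 (adjusted p = 0.0873). In the fit lacking JU replicate 1, 11 of the 21 rose and 0 fell, against 17% of all genes higher and 16.9% lower, whereas Asns, which also belongs to amino acid supply, fell. With UA against vehicle the list had a median of -0.27, with 19 of 21 negative and 0 called, against 3.47% of all genes called. Without JU replicate 1 there were 0 higher and 6 lower, against 14.8% and 13.4% of all genes. Vehicle against sham and UA against vehicle use the same vehicle libraries with opposite sign, so the opposite medians are not independent.

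Of 16 genes of the eIF2 alpha kinases, phosphatase and eIF2 subunits, 0 were called between vehicle and sham, against 5.02% of all genes. An unadjusted p below 0.05 was found for 2, against 29.3% of all genes. The median was -0.04, with values between -0.30 and 0.98. The 3 with the smallest p were Eif2ak1, the haem-sensing kinase, at -0.19 ± 0.07 (adjusted p = 0.1255), and the eIF2 subunits Eif2s1 at -0.25 ± 0.11 (adjusted p = 0.1475) and Eif2s2 at -0.30 ± 0.14 (adjusted p = 0.182). With JU replicate 1 left out, the list had 0 higher and 3 lower, which were these 3 (adjusted p = 0.0472, 0.02002 and 0.0365 in that order). In that fit 17% of all genes were higher and 16.9% lower. Of 12 tested partners and regulators induced by ATF4, out of 14 in the table, 0 were called, against 5.02% of all genes. Of these 12, 11 were positive and the median was 0.32. Txnip, an inhibitor of thioredoxin, stood at 1.24 ± 0.49, Nupr1, a stress-induced chromatin factor, at 1.19 ± 0.57, and Cebpb, a C/EBP partner, at 1.18 ± 0.48 (adjusted p = 0.123, 0.182 and 0.136 in that order). Those 3 passed without JU replicate 1, among 4 higher and 0 lower, against 17% and 16.9% of all genes. Among 20 cytosolic aminoacyl-tRNA synthetases, which ATF4 raises under amino acid shortage, 0 were called, against 5.02% of all genes. Of the 20, 14 were negative and the median was -0.07. Farsa had 0.22 ± 0.07 (adjusted p = 0.0875), Gars -0.29 ± 0.10 (adjusted p = 0.0941) and Farsb -0.25 ± 0.09 (adjusted p = 0.0981). All 3 passed without JU replicate 1 (adjusted p = 0.0331, 0.00396 and 0.0286 in that order). They were among 2 higher and 4 lower, against 17% and 16.9% of all genes.

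Among 25 chaperones and degradation factors of the endoplasmic reticulum, 0 were called between vehicle and sham, against 5.02% of all genes. Of the 25, 16 were positive and the median was 0.10. The 3 with the smallest p were all negative. Canx, the chaperone calnexin, had -0.30 ± 0.08 (adjusted p = 0.05375), Dnajb9, a target of XBP1, -0.26 ± 0.07 (adjusted p = 0.0593), and Sel1l, a partner of the ubiquitin ligase of this pathway, -0.21 ± 0.06 (adjusted p = 0.0694). These 3 passed without JU replicate 1 (adjusted p = 0.00324, 0.0142 and 0.0106 in that order). The list then had 5 higher and 3 lower, against 17% and 16.9% of all genes. Canx rose with UA, to 386.9 CPM against 306.4 CPM in vehicle (0.34, adjusted p = 0.0430), a call that held in 2 of 15 fits leaving out 1 library and not with GC correction (0.11, adjusted p = 0.446). Among 9 tested sensors and their proteases, out of 10, Mbtps2 was the 1 called gene, against 5.02% of all genes. Without JU replicate 1 there were 3 higher and 1 lower, against 17% and 16.9% of all genes. Mbtps2, the protease that frees the active part of ATF6, fell to 29.4 CPM in vehicle, against 39.7 CPM in sham (-0.43 ± 0.08, adjusted p = 0.0159). It rose with JA (0.44, adjusted p = 0.0288) and with UA (0.49, adjusted p = 0.0143), and was lower in JU than in UA (-0.48, adjusted p = 0.0436). With GC correction these 4 values were -0.15, 0.19, 0.21 and -0.23, and none passed. The vehicle call held in 13 of 15 fits that left out 1 library, those for JA and UA in 8 and 11, and that between JU and UA in 2. Atf6 itself had -0.21 ± 0.08 (adjusted p = 0.133) and Creb3l2, a related factor, 0.89 ± 0.36 (adjusted p = 0.133).

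**Figure D5:**
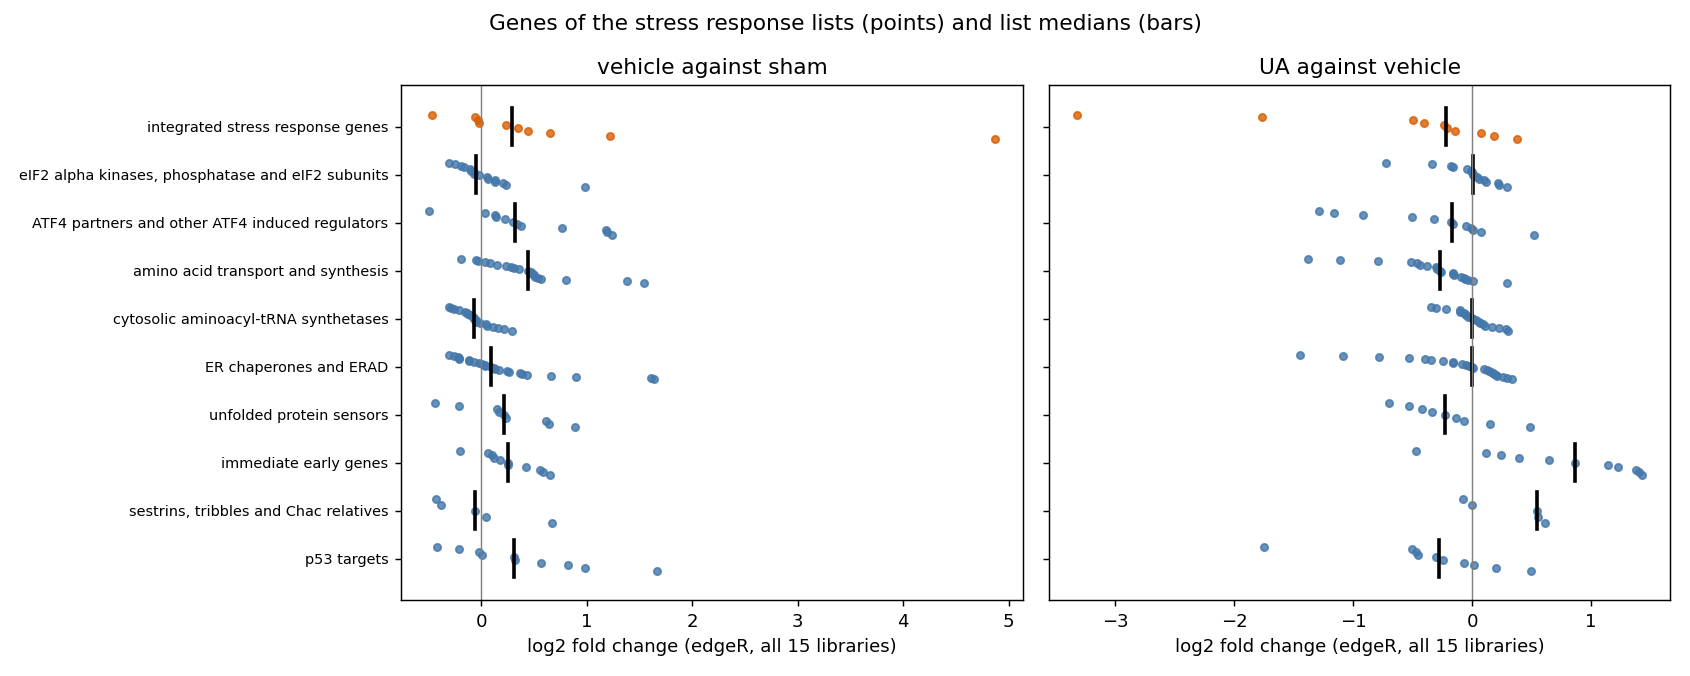
Log2 fold changes (edgeR, all 15 libraries) of the members and of the genes of 9 related lists in vehicle against sham (left) and UA against vehicle (right); each point is a gene and each bar the median of its list. Amino acid supply has a median of 0.44 in vehicle against sham and -0.27 in UA against vehicle, while aminoacyl-tRNA synthetases lie near 0 in both, at -0.07 and 0.00. The panels share the vehicle libraries, with opposite sign, and are not independent.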

How the data were processed

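Brain mRNA was sequenced in 15 libraries of 5 groups, mapped to groups by their labels. Tools and builds listed, with no role or order, in the submitters' processing notes are GRCm38, mm10, DESeq, Cufflinks, HISAT2 and Trimmomatic. The authors deposited 1 table with raw gene counts and FPKM values (fragment counts divided by transcript length and library size) per library, per the file headers. Another 1 count column matched no sample and was not used. No library pair agreed within sampling noise. The members and gene lists were chosen with earlier results of these data known.

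Counts were fitted with edgeR 4.0.16 (R 4.3.3): a minimum-count filter by group that left 15125 genes, TMM scaling (factors 0.975 to 1.03), and robust quasi-likelihood tests with 1 term per group over all 15 libraries, Benjamini-Hochberg adjusted over all genes tested (threshold 0.05). The biological coefficient of variation was 27.1%. The procedure was tested on simulated data with a smaller spread than that and no outlying library, so the test does not show how calls behave in these libraries. FPKM served only to compare levels between genes. Alternatives were DESeq2 1.42.0, its size factors in edgeR, no count filter, only the groups compared, a replicate block, GC correction by lowess and leaving out each library. Leaving out JA replicate 1 with JU replicate 1, and GC correction without JU replicate 1, were added after seeing the data. The 3 genes of each pathway list with the smallest p between vehicle and sham (mean CPM of at least 1) are named, as are called genes of a list where 5 or fewer passed.

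Replicate numbers were checked for pairing. Over 30 same-numbered pairs the correlation of deviations from group means ran from -0.726 to 0.701. All 3 pairs were over 0.1 between JU and JA alone (0.701, 0.387 and 0.422), and there the replicate block called 0 genes, as did the fit without it. Gene positions and GC content are from GENCODE vM21, which held 97.8% of the genes. At 18346180 to 20447465 counts per library, 3 counts are taken as the lowest level that could be told from 0, for counting error only.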

Additional observations from a re-analysis of the deposited data

Results flagged for a closer look

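The departure of JU from the sum of JA and UA was past the threshold for Herpud1, which drew attention because the effect of JU against vehicle then differs from that of JA and UA added. Its size was 0.34 on the log2 scale (0.3407 ± 0.1108 SE, edgeR adjusted p = 0.0478). Herpud1 averaged 52.1 ± 5.06 CPM in JA, 47.4 ± 1.64 CPM in UA, 57.1 ± 2.76 CPM in JU and 54.7 ± 3.46 CPM in vehicle (SD, n = 3 each). The means of JA and UA lay below that of vehicle and the mean of JU above it, so JU did not add to the single effects. In this contrast 20.8% of all genes were called, and 1 of 10 members. The call was lost with GC correction (0.12, adjusted p = 0.402), with the replicate block (adjusted p = 0.0672), without a count filter (adjusted p = 0.0634), with only the groups compared (adjusted p = 0.0864) and with GC correction and without JU replicate 1 (0.10, adjusted p = 0.571). It was also lost when JU replicate 1, JA replicate 2 or 3, any UA or sham replicate, or vehicle replicate 2 or 3 was left out. It held with DESeq2 size factors, in DESeq2, without JA replicate 1, JU replicate 2 or 3 or vehicle replicate 1, and without both JA replicate 1 and JU replicate 1.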

How the results depend on the processing

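Over the 10 members, all 8 comparisons and their alternatives, 1062 fold changes kept direction and side of the threshold, 62 passed newly, 13 no longer passed and 83 changed sign. The cause was not tested. FPKM gave the same order of group means as CPM for 8 of 10 members.

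Between vehicle and sham 760 genes and 0 members passed. DESeq2 gave 2488 genes and 2 members, only the groups compared 3763 and 3, GC correction 1 gene, leaving out JA replicate 1 and JU replicate 1 5455 and 6, and GC correction without JU replicate 1 3787 and 3. Leaving out 1 library gave 0 to 5172 genes and 0 to 6 members. Between JA and vehicle 236 genes passed, with 96 without a filter, 981 in DESeq2, 0 with only the groups compared and 0 with GC correction. Leaving out both replicates gave 4291 genes and 3 members, GC correction without JU replicate 1 gave 1 gene, and leaving out 1 library 0 to 2899 genes and 0 to 1 members. Between UA and vehicle 525 genes passed, with 1557 and 1 member in DESeq2, 2159 and 3 with only the groups compared, 0 genes with GC correction, 4732 and 6 without both replicates, 1782 and 3 with GC correction without JU replicate 1, and 0 to 4300 genes and 0 to 5 members leaving out 1 library.

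Between JU and vehicle 0 genes passed, with 2 in DESeq2, 1 without both replicates, 1 with GC correction without JU replicate 1, and 0 to 1 leaving out 1 library. Between JU and JA DESeq2 called 632 genes, against 0 in edgeR and 0 to 0 leaving out 1 library. Between JU and UA 164 genes passed, with 1624 and 1 member in DESeq2. There were 0 with DESeq2 size factors, no filter, only the groups compared, GC correction, GC correction without JU replicate 1 or without both replicates, and 0 to 3068 genes and 0 to 1 members leaving out 1 library. Between JA and UA DESeq2 called 1 gene, against 0 in edgeR.

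For the departure from additivity 3141 genes and 1 member passed. DESeq2 gave 4751 and 4, only the groups compared 1057 and 0, GC correction 2 and 0, and GC correction without JU replicate 1 69 and 0. No filter gave 2451 genes and 0 members, and leaving out both replicates 4100 genes and 4 members. Leaving out 1 library gave 974 to 5539 genes and 0 to 6 members.

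With the replicate block the genes past the threshold were 383 between vehicle and sham, 0 between JA and vehicle, 191 between UA and vehicle, 0 between JU and UA and 1974 for the departure, and 0 members passed in any comparison, which ended the Herpud1 call (adjusted p = 0.0672). The block turned JU against vehicle to -1.12 for Atf3 and -0.22 for Trib3, and 6 of 15 libraries correlated best with their own number.

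Sign changes numbered 3 in vehicle against sham, 4 in JA, 2 in UA and 22 in JU against vehicle, 16 in JU against JA, 15 in JU against UA, 10 in JA against UA and 11 in the departure. Values are given for all members against vehicle or sham, and for named members in the other comparisons. In JU against vehicle, leaving out 1 library gave -3.61 to 1.25 for Atf3, -1.06 to 0.56 for Trib3, -0.17 to 0.22 for Asns, -0.43 to -0.00041 for Chac1, -0.28 to 0.23 for Sesn2 and -0.0503 to 0.54 for Creld2. The lowest Atf3, Trib3 and Creld2 values and the highest Asns value were those without JU replicate 1. Without JA replicate 1 and JU replicate 1 the values were -3.60 for Atf3, -1.06 for Trib3, 0.22 for Asns, 0.0028 for Chac1 and -0.0468 for Creld2. With GC correction and without JU replicate 1 they were -3.57, -1.06, 0.22, 0.0074 and -0.0321 in the same order. Against JA, Atf3 had -1.47 to 4.96 leaving out 1 library, and with GC correction and without JU replicate 1 Atf3 had -1.53 and Creld2 -0.0276. Against UA, Atf3 had -0.30 to 4.57 leaving out 1 library, -0.29 without JA replicate 1 and JU replicate 1, and -0.37 with GC correction and without JU replicate 1. In JA against UA, Atf3 had -1.30 to 2.08 leaving out 1 library and -1.31 without JA replicate 1 and JU replicate 1. GC correction turned Herpud1 in JA against vehicle to 0.0348 and Chac1 in UA against vehicle to 0.0305, and without JU replicate 1 as well these were 0.0343 and 0.0291. GC correction also turned Atf4 to -0.0699 in JU against JA and -0.15 in JU against UA, and Chac1 to -0.19 and Xbp1 to -0.20 in the departure. Leaving out 1 library gave -0.0907 to 0.0394 for Atf4, -0.12 to 0.00043 for Chac1 and -0.0701 to 0.00018 for Xbp1 in vehicle against sham, and -0.0814 to 0.16 for Atf4 in JA against vehicle.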

Other observations

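Genes of early response and of p53 were read beside the members, since Atf3 and Sesn2 are also induced outside the integrated stress response. Of 11 immediate early genes, 0 were called between vehicle and sham by edgeR, against 5.02% of all genes. An unadjusted p below 0.05 was found for 1, against 29.3% of all genes. Of the 11, 10 were positive and the median log2 fold change was 0.25, against 0.00 over all genes. Jun, a partner of ATF3, had 0.65 ± 0.22 (adjusted p = 0.0906), Ier2 0.56 ± 0.28 (adjusted p = 0.198) and Btg2 0.42 ± 0.23 (adjusted p = 0.244). Leaving out JU replicate 1, 1 was higher, which was Jun (adjusted p = 0.00628), and 0 were lower, against 17% and 16.9% of all genes. With UA against vehicle the median was 0.86, with 10 of 11 positive, where Atf3 was -3.32. In that comparison 0 of the 11 were called, against 3.47% of all genes.

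Of 10 p53 targets, 0 were called between vehicle and sham, against 5.02% of all genes. An unadjusted p below 0.05 was found for 2, against 29.3% of all genes, and 7 were positive, with a median of 0.32. Bbc3, which encodes the cell death protein PUMA, had 0.83 ± 0.23 (adjusted p = 0.0601). Zmat3 had -0.42 ± 0.19 (adjusted p = 0.161) and Gadd45a 0.98 ± 0.47 (adjusted p = 0.180). These 3 passed without JU replicate 1 (adjusted p = 0.0133, 0.01996 and 0.00873 in that order). The list then had 4 higher and 1 lower, against 17% and 16.9% of all genes. Among 5 relatives of Sesn2, Trib3 and Chac1, 0 were called, against 5.02% of all genes, and 2 had an unadjusted p below 0.05, against 29.3%. Chac2 had -0.43 ± 0.16 (adjusted p = 0.106), Trib1 0.67 ± 0.29 (adjusted p = 0.156) and Trib2 -0.38 ± 0.33 (adjusted p = 0.453). Without JU replicate 1 there were 0 higher and 1 lower, which was Chac2 (adjusted p = 0.0396), against 17% and 16.9% of all genes.

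Between vehicle and sham 5.02% of all genes were called, and 33.9% without JU replicate 1. Beside these shares, microglia markers were called in 4 of 9, and in 9 of 9 without that library, all higher. Macrophage and activated myeloid markers were called in 0 of 8, and in 8 of 8 without it, all higher. Neuronal markers were lower in 8 of 8 by sign, with 0 called, and 5 were called without JU replicate 1. Neutrophil markers stayed at a summed 1.15 to 6.30 CPM in all libraries. Choroid plexus markers summed to 21.5 CPM in vehicle replicate 1 and to 281.4 to 1217 CPM in the other libraries, and their part in the members' values was not tested.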
